A study of Mus musculus with 6 samples.

Results

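Glutathione transferases (GSTs), the enzymes that make and recycle glutathione, and other target genes of the transcription factor NRF2 were examined in livers lacking sphingosine-1-phosphate (S1P) lyase. The set held 37 genes taken by symbol, read through every probe set annotated with exactly that symbol on an Affymetrix mouse array. This gave 57 of the 45101 probe sets on the array and covered 35 of the 37 genes. No probe set carried only the symbol Gsta1 or G6pdx. Slc7a11, which imports cystine, was read only by probe sets too dim to test, so 34 member genes stood among the 13370 genes tested. Of these genes, 21 encode GSTs and 16 encode enzymes of glutathione supply, other NRF2 targets or regulators of NRF2.

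Arrays were run on single livers, for 3 animals without S1P lyase and 3 wild-type (WT) animals. All 6 animals were of a mixed C57BL6 X 129sv strain background and received no treatment, and the labels state no age, litter or sex for them. S1P lyase, encoded by Sgpl1, ends sphingolipid breakdown by cleaving S1P. P-values of single genes set the group difference against the spread between these animals, with the spread moderated over all genes. The comparison asks which transcripts differ in the liver when this enzyme is missing, and 3 arrays per group limit the precision of every value.

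GSTs join glutathione, a tripeptide thiol that is abundant in hepatocytes, to reactive electrophiles so that these can be exported. NRF2, encoded by Nfe2l2, is held in the cytoplasm by KEAP1 and degraded, and on oxidative or electrophile stress it enters the nucleus, pairs with a small MAF protein and binds antioxidant response elements. Its usual targets are GSTs, the glutathione synthesis enzymes and quinone reductase, while many alpha and mu class GSTs also respond to the xenobiotic receptor CAR, encoded by Nr1i3.

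The tissue label and the scale of the arrays were looked at first. Hepatocyte markers had a mean of 13.02 to 13.28 log2 in every array. Of 9 tested hepatocyte markers 8 had a difference below 0 and the median was -0.11 log2. In that list 2 fell (Ttr and Hpd) and 0 rose, where 8.09% of all genes fell and 10.5% rose. The 9 Y-linked probe sets read 1.77 to 3.08 in all 6 arrays. The 2 brighter Xist probe sets read 10.45 to 11.41 there, and both readings were as in female tissue. Sgpl1 read 2.46, 2.99 and 2.87 log2 in knockout replicates 1 to 3 against 6.65, 6.9 and 6.71 in WT, and fell by 3.98 (SE 0.16, limma adjusted p = 1.5e-05). Neutrophil markers rose in 11 of 12 tested cases, where 10.5% of all genes rose. The mean over the list was 8.4 to 8.67 log2 in knockout arrays and 5.18 to 5.45 in WT arrays. The poly-A control RNAs, added before labelling, were higher in knockout by 0.75 log2, and so was the 3' minus 5' signal of the array's quality genes Actb, Gapdh and Pcx, by 0.45, 0.47 and 1.01 (exact permutation test, two-sided, p = 0.1 for each, the smallest that 3 against 3 arrays allow). The part of these differences in the results that follow was not tested. In whole liver RNA, fewer cells of a type and less RNA per cell cannot be told apart.

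Most GST genes had lower transcript levels in the knockout livers, whereas most of the other members were not called in either direction. Of the 34 tested members, 17 fell (50%) and 3 rose (8.82%) at a limma adjusted p under 0.05, where 8.09% of all genes tested fell and 10.5% rose. The count that fell was thus well above the background share, and the count that rose was close to it. Among the 20 tested GST genes 13 fell and 1 rose, with a median difference of -0.82 log2. The 14 other members included 4 that fell (Gclc, Gclm, Nqo1 and Ephx1) and 2 that rose, with a median of -0.12. Those that rose were Abcc1 and Keap1, a regulator of NRF2 and not one of the target enzymes. The median over all 34 members was -0.66 log2, beside -0.05 over all genes tested. At least 2-fold falls were seen in 9 members, a size reached by 1.62% of all genes, and a 2-fold rise in 1, beside 3.93% of all genes. The knockout values were all under the lowest WT value in 20 members and all over the highest in 4, where this held for 21.8% and 19% of all genes.

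**Figure D1:**
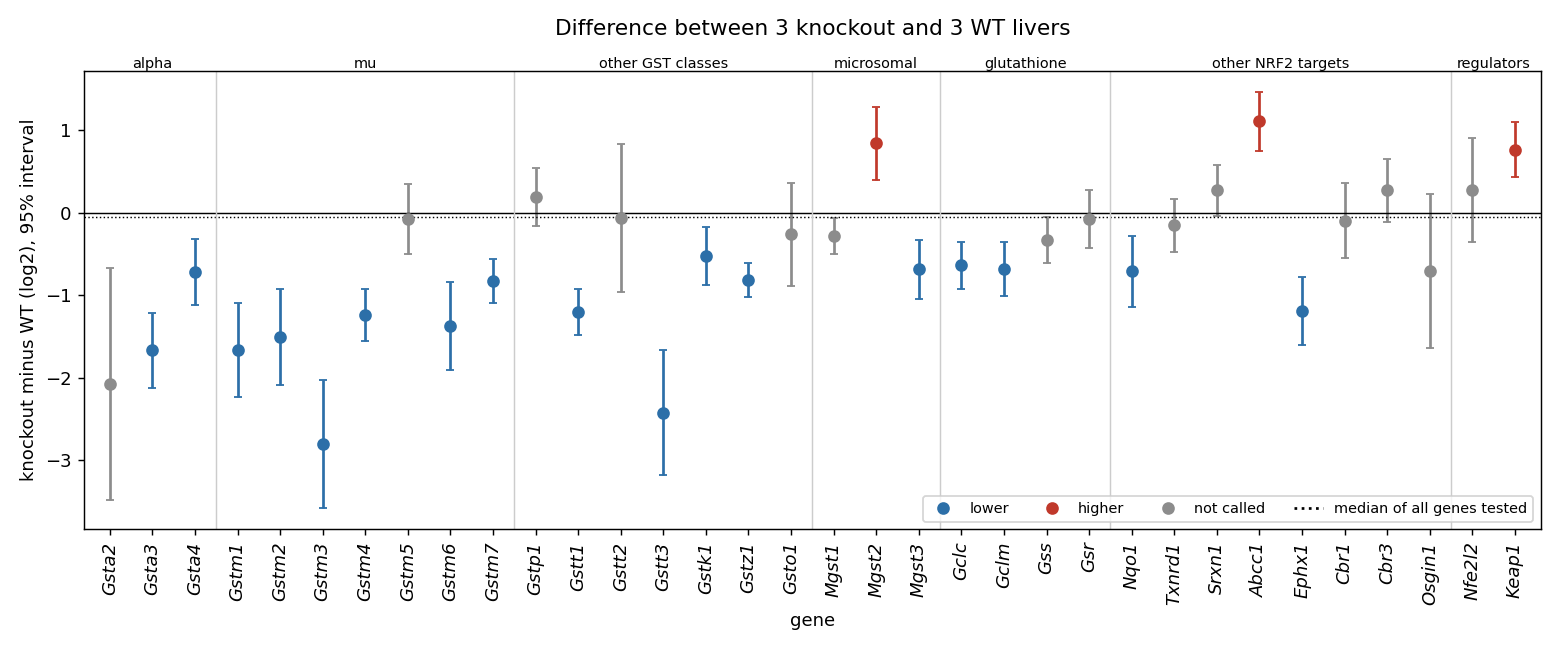
The difference between knockout and WT livers (log2, vertical axis) is drawn for each of the 34 tested genes with its 95% interval from limma, ordered by role. Blue points fell, red points rose and grey points were not called, and the dotted line marks the median of all genes tested, -0.05. The alpha, mu and theta class genes hold the lowest points, down to -2.80 for Gstm3, and the 3 red points are Mgst2, Abcc1 and Keap1.

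These counts depended on the scale and less on single animals. Without 1 array at a time, 13 to 17 members fell and 2 or 3 rose. In the same fits 526 to 944 of all 13370 genes fell and 792 to 1437 rose. Centring the arrays on the poly-A controls moved the median of all genes to -0.80 log2 and that of the members to -1.41, so that 28 members fell and 0 rose, amid 377 genes that rose and 10120 that fell overall in place of 1400 and 1082. Centring on hepatocyte markers left 14 members that fell and 3 that rose, amid 1799 and 514 overall. The members' median lay 0.61 log2 below that of all genes on each of these scales, since centring shifts every gene alike.

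**Figure D2:**
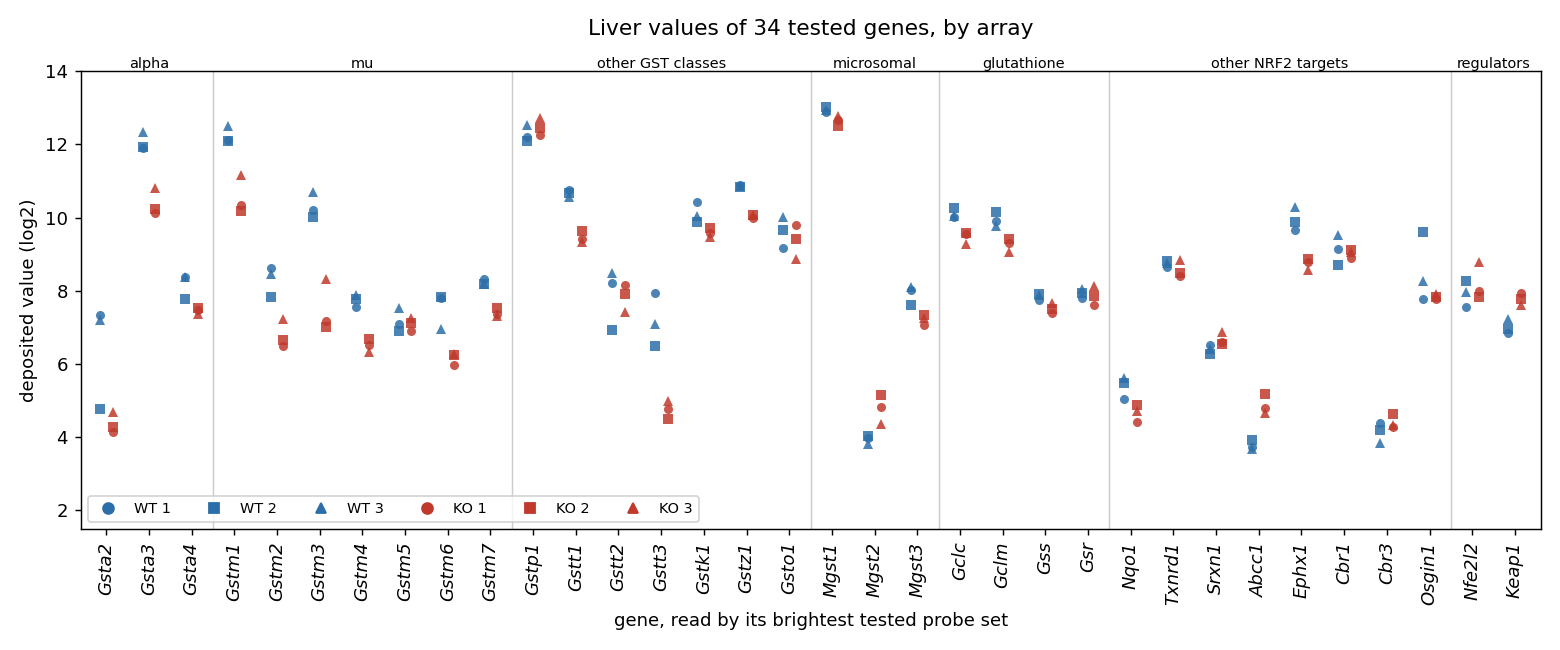
Deposited values (log2, vertical axis) of the 34 tested genes in every array, with WT in blue, knockout in red and the marker shape giving the replicate. Levels of different genes come from different probes and cannot be set against each other, so only the gap within a gene is informative. The WT and knockout points are apart in Gsta3, Gstm1, Gstt1 and Gstz1 and mixed in Gstm5, Gstp1 and Gsr.

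The mu class, whose 7 genes are direct neighbours on chromosome 3 in the mouse assembly GRCm38.p6, was lower in 6 of its 7 members. Gstm3, an abundant liver GST of this class, read 7.17, 7.02 and 8.31 log2 in the knockouts, listed as replicates 1 to 3 here and throughout, and 10.2, 10.01 and 10.69 in WT. It fell by 2.80 log2 (SE 0.34, n = 3 per group, limma adjusted p = 0.00145). The groups were far apart, and knockout replicate 3 lay closest to WT. Gstm1, a major mu class GST of the liver, read 10.35, 10.19 and 11.17 in knockout and 12.11, 12.1 and 12.49 in WT, and fell by 1.66 (SE 0.25, limma adjusted p = 0.00358). In Gstm2 the knockout values were 6.49, 6.67 and 7.23 and the WT values 8.62, 7.83 and 8.46, a 2.83-fold fall (limma adjusted p = 0.00605). Knockout replicate 3 was again the highest of its group in both genes without reaching the WT range.

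The flanking genes of the cluster differed from each other. Gstm4, at the cluster's far end, read 6.52, 6.68 and 6.34 in knockout and 7.57, 7.79 and 7.88 in WT and fell by 1.23 log2 (SE 0.14, limma adjusted p = 0.00107). Gstm6 read 5.97, 6.24 and 6.27 against 7.8, 7.82 and 6.97 and fell by 1.37 (SE 0.23, limma adjusted p = 0.00623). Gstm7 read 7.37, 7.54 and 7.32 against 8.33, 8.19 and 8.19 and fell by 0.83 (SE 0.11, limma adjusted p = 0.00267). In all 3 genes the knockout and WT values were apart, with WT replicate 3 the nearest to the knockouts in Gstm6. Gstm5, which opens the cluster and is annotated on the opposite strand, read 6.91, 7.13 and 7.27 in knockout and 7.08, 6.9 and 7.54 in WT. Its groups overlapped, and the difference of -0.07 log2 (95% interval -0.50 to 0.36) was not called and changed sign under some settings.

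**Figure D3:**
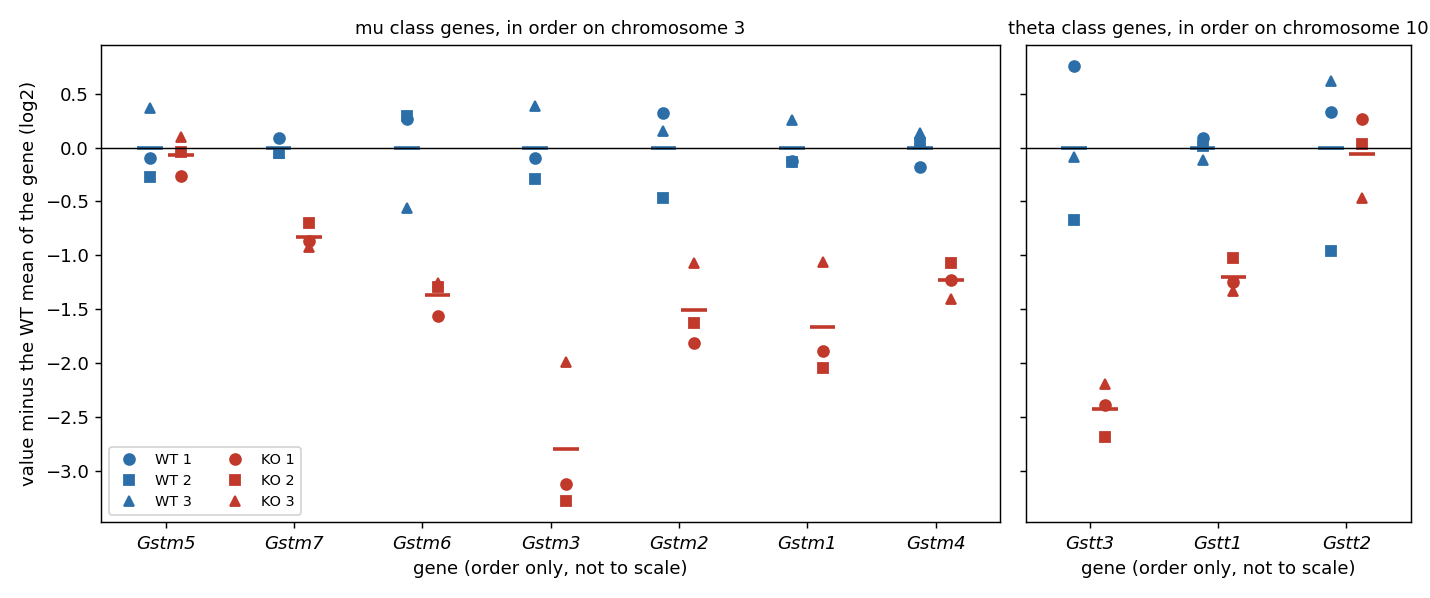
Each array's value minus the WT mean of its gene (log2, vertical axis) for the mu class genes and the tested theta class genes, in the order of the genes on chromosomes 3 and 10, with Gstt4 between Gstt1 and Gstt2 not drawn. Points are single arrays (WT blue, knockout red) and bars are group means. Knockout points sit below WT in 6 neighbouring mu genes and in Gstt3 and Gstt1, and overlap WT in Gstm5 and Gstt2.

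Promoter sequences of members that fell and of their neighbour that was not called are shown because a match to the antioxidant response element is what links a GST gene to NRF2 in the textbook account. RefSeq promoter windows of GRCm38.p6, from 250 bases before to 50 after an annotated start, were searched for TGACNNNGC on both strands. The 4 sequences below run 5′ to 3′ on the gene's strand up to the base before the first annotated base of the gene, with matches in capitals.
Gsta3, chr1:21240335-21240564, plus strand: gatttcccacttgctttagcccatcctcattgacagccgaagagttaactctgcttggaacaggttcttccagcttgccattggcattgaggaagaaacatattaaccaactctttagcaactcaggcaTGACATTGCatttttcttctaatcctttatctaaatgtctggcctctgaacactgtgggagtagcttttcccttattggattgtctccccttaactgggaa
Gclm, chr3:122245307-122245486, plus strand: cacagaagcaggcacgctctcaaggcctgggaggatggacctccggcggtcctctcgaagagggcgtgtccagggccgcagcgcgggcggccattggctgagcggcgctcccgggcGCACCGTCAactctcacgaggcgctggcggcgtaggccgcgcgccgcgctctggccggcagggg
Gstm3, chr3:107969175-107969424, minus strand: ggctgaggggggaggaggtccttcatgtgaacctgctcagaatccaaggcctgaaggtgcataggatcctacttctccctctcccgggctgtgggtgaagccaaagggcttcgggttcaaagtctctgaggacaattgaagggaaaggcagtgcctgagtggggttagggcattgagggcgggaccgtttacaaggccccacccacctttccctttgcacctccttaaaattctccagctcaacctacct
Gstm5, chr3:107895604-107895853, plus strand: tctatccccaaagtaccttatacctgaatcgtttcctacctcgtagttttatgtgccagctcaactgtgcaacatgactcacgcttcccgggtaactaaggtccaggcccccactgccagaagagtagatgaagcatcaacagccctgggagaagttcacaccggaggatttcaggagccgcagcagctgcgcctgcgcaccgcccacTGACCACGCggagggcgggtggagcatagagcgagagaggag
Gsta3 and Gclm, which both fell, carried a match at positions -101 and -64, counted from the gene's first base. Gstm3, with the steepest fall of the members, held no match in this window, while Gstm5, which was not called, held one at position -42.

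Across the members, 32 genes had a promoter window and 9 of them held a match, in Gsta3, Gstm5, Gstm7, Mgst1, Gclm, G6pdx, Txnrd1, Srxn1 and Nfe2l2. By gene the share was 28.1%, beside 13.99% of all 27025 genes with a window, and by window 21.4% of 42, beside 12.4% of all 32851. Genes with a match were 3 of 15 among members that fell, 0 of 2 among those that rose and 5 of 12 among those not called. The matches of Gstm7 and Txnrd1 lay before an inner start of the gene, and that of Srxn1 after the start. No window was listed for Gsta4, Gstt2, Gclc, Gsr and Abcc1. A match describes letters in these windows and is not a measured binding site. Bases outside the windows were not searched, so a window without a match does not show that a gene lacks an element.

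Alpha class genes were lower as well, with a marked spread among WT animals in Gsta2. Gsta3, a constitutive liver GST, read 10.13, 10.23 and 10.81 log2 in knockout and 11.9, 11.93 and 12.34 in WT, and fell by 1.66 (SE 0.20, limma adjusted p = 0.00138). Gsta4, which acts on the lipid peroxidation product 4-hydroxynonenal, read 7.48, 7.54 and 7.37 against 8.37, 7.79 and 8.38 and fell by 0.72 (SE 0.17, limma adjusted p = 0.0251). The Gsta4 call was lost without any 1 of the 3 knockout replicates or without WT replicate 1 or 3, at limma adjusted p = 0.0584 to 0.0804. Gsta2, an inducible alpha class gene, read 4.13, 4.29 and 4.69 in knockout and 7.35, 4.78 and 7.21 in WT. WT replicate 2 thus lay next to the knockouts and far from the other WT animals. The difference of -2.07 log2 (SE 0.61) missed the threshold at the gene level (limma adjusted p = 0.0504) and passed it without WT replicate 2, at -2.90 (limma adjusted p = 0.00024), and when fitted over all probe sets (limma adjusted p = 0.0479).

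The theta class genes, neighbours on chromosome 10, also held both genes that fell and one that was not called. Gstt3 read 4.78, 4.49 and 4.98 log2 in knockout and 7.93, 6.5 and 7.09 in WT, and fell by 2.42 (SE 0.33, limma adjusted p = 0.00233). Gstt1, which acts on small halogenated compounds, read 9.41, 9.64 and 9.33 against 10.75, 10.68 and 10.55 and fell by 1.20 (SE 0.12, limma adjusted p = 0.000637). Both groups were well apart in these genes. Gstt2 read 8.15, 7.91 and 7.41 in knockout and 8.21, 6.92 and 8.5 in WT, with overlapping groups and WT replicate 2 the lowest of all 6 arrays (difference -0.06, 95% interval -0.96 to 0.84). Gstt3 and Gstt1 lie on the chromosome of the targeted gene, with 84 and 85 protein-coding genes between them and Sgpl1, and in a mixed strain background a strain difference along that chromosome cannot be told apart from a response.

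Among the remaining soluble classes, Gstz1 moved with the least scatter and Gstp1 did not change measurably. Gstz1, the maleylacetoacetate isomerase of tyrosine breakdown, read 10, 10.06 and 10.08 log2 in knockout and 10.88, 10.84 and 10.87 in WT, a fall of 0.82 (SE 0.09, limma adjusted p = 0.000992). Gstk1, a GST of mitochondria and peroxisomes, read 9.57, 9.71 and 9.48 against 10.42, 9.88 and 10.04 and fell by 0.52 (SE 0.15, limma adjusted p = 0.0489). That call was marginal: it was lost without any 1 of the 3 knockout replicates or without WT replicate 1 or 3, at limma adjusted p = 0.0695 to 0.127, and under 8 of the other 10 settings. Gstp1, the pi class GST, read 12.27, 12.44 and 12.72 in knockout and 12.2, 12.1 and 12.54 in WT, with overlapping groups (difference 0.20, 95% interval -0.15 to 0.55, and -0.55 on the poly-A scale). Gsto1, an omega class thiol transferase, differed by -0.26 (95% interval -0.89 to 0.37) on a probe set that can read related transcripts and was not called. Its other probe set differed by -0.60 (95% interval -1.02 to -0.18, limma adjusted p = 0.0552 over all probe sets), with the knockout values all below WT, and also missed the threshold.

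The microsomal GSTs, membrane enzymes unrelated in sequence to the soluble ones, went in different directions. Mgst3 read 7.06, 7.35 and 7.27 log2 in knockout and 8.02, 7.62 and 8.1 in WT and fell by 0.69 (SE 0.16, limma adjusted p = 0.0208). Mgst2, which can make leukotriene C4, read 4.82, 5.16 and 4.37 against 3.97, 4.04 and 3.82 and rose by 0.84 (SE 0.19, limma adjusted p = 0.0209). Both groups were apart in either gene, but the WT values of Mgst2 lay near 3.58 log2, the limit for calling a probe set dim. The Mgst3 call was lost when knockout replicate 1, knockout replicate 2 or WT replicate 1 was left out (limma adjusted p = 0.0526 to 0.0781). That of Mgst2 was lost when any 1 of those 3 arrays or WT replicate 3 was left out (limma adjusted p = 0.0511 to 0.072), and its difference was 0.09 on the poly-A scale. Mgst1, an abundant microsomal GST of liver, read 12.68, 12.51 and 12.78 against 12.88, 13.01 and 12.93, a difference of -0.28 (95% interval -0.50 to -0.06, limma adjusted p = 0.0761) that was not called although the groups did not overlap.

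Both subunits of glutamate-cysteine ligase, the rate-limiting enzyme of glutathione synthesis, were lower. The catalytic subunit gene Gclc read 9.56, 9.57 and 9.29 log2 in knockout and 10.01, 10.25 and 10.05 in WT and fell by 0.63 (SE 0.12, limma adjusted p = 0.0108). The modifier subunit gene Gclm read 9.31, 9.41 and 9.06 against 9.92, 10.14 and 9.77 and fell by 0.68 (SE 0.14, limma adjusted p = 0.0139). Their groups were apart in every array, and each gene's second probe set fell as well, by 0.77 and 1.13. With arrays centred on hepatocyte markers the differences were -0.51 and -0.55 and narrowly missed the threshold (limma adjusted p = 0.0507 and 0.0521). Gss, which adds glycine to complete glutathione, differed by -0.33 (95% interval -0.61 to -0.05, limma adjusted p = 0.0985) with groups that did not overlap. The second Gss probe set, which can read related transcripts, differed by -0.02 (95% interval -0.30 to 0.26) with overlapping groups. Gsr, which reduces oxidised glutathione, differed by -0.07 (95% interval -0.42 to 0.28). Its other probe set pointed the opposite way, at 0.37 (95% interval 0.08 to 0.65, limma adjusted p = 0.0778 over all probe sets) with the knockout values all above WT, so the direction of Gsr is unsettled. Slc7a11 read 2.59 to 2.87 in knockout and 2.75 to 2.95 in WT on its brighter probe set, too dim to test in either group.

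The classical NRF2 reporter genes did not move as a block. Ephx1, the microsomal epoxide hydrolase, read 8.8, 8.87 and 8.58 log2 in knockout and 9.65, 9.87 and 10.3 in WT and fell by 1.19 (SE 0.18, limma adjusted p = 0.00355). Nqo1, the quinone reductase, read 4.42, 4.89 and 4.72 against 5.04, 5.49 and 5.63 and fell by 0.70 (SE 0.19, limma adjusted p = 0.0353). The Nqo1 groups were apart by little, and its call was lost without any 1 of the 3 knockout replicates or without WT replicate 2 or 3 (limma adjusted p = 0.0564 to 0.117), and with hepatocyte marker centring (-0.58, limma adjusted p = 0.0984). Abcc1, an exporter of glutathione conjugates, read 4.79, 5.19 and 4.67 against 3.72, 3.92 and 3.67 and rose by 1.11 (SE 0.15, limma adjusted p = 0.0026), though its WT level was near the dim limit and its difference was 0.36 and not called on the poly-A scale. Leukocytes also express Abcc1 and Mgst2, and the neutrophil markers of the same arrays were higher, by a median of 3.98 log2 over the list. The part of these cells in the rise of both genes was not tested.

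Other targets of this group were not called. Txnrd1, the cytosolic thioredoxin reductase, differed by -0.15 log2 (95% interval -0.47 to 0.17). A dimmer probe set differed by -0.40 (95% interval -0.68 to -0.12) with the knockout values all below WT. It narrowly missed the threshold (limma adjusted p = 0.0588 over all probe sets). The dimmest Txnrd1 probe set differed by -0.38 (95% interval -0.83 to 0.07) with overlapping groups. Cbr1 and Cbr3, carbonyl reductases, differed by -0.09 (95% interval -0.55 to 0.37) and 0.27 (95% interval -0.11 to 0.66). In Srxn1, the sulfiredoxin that repairs peroxiredoxins, the brightest probe set was 0.28 higher (95% interval -0.03 to 0.58), and it can read related transcripts. The other 3 are not marked as reading related transcripts and were lower by 0.23 to 0.45, without a call. The direction of Srxn1 is thus unsettled. Osgin1, a growth inhibitor induced by oxidised lipids, read 7.79, 7.84 and 7.92 in knockout and 7.77, 9.62 and 8.26 in WT. WT replicate 2 alone stood high, and the difference of -0.70 (95% interval -1.63 to 0.23) was -0.17 without it.

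**Figure D4:**
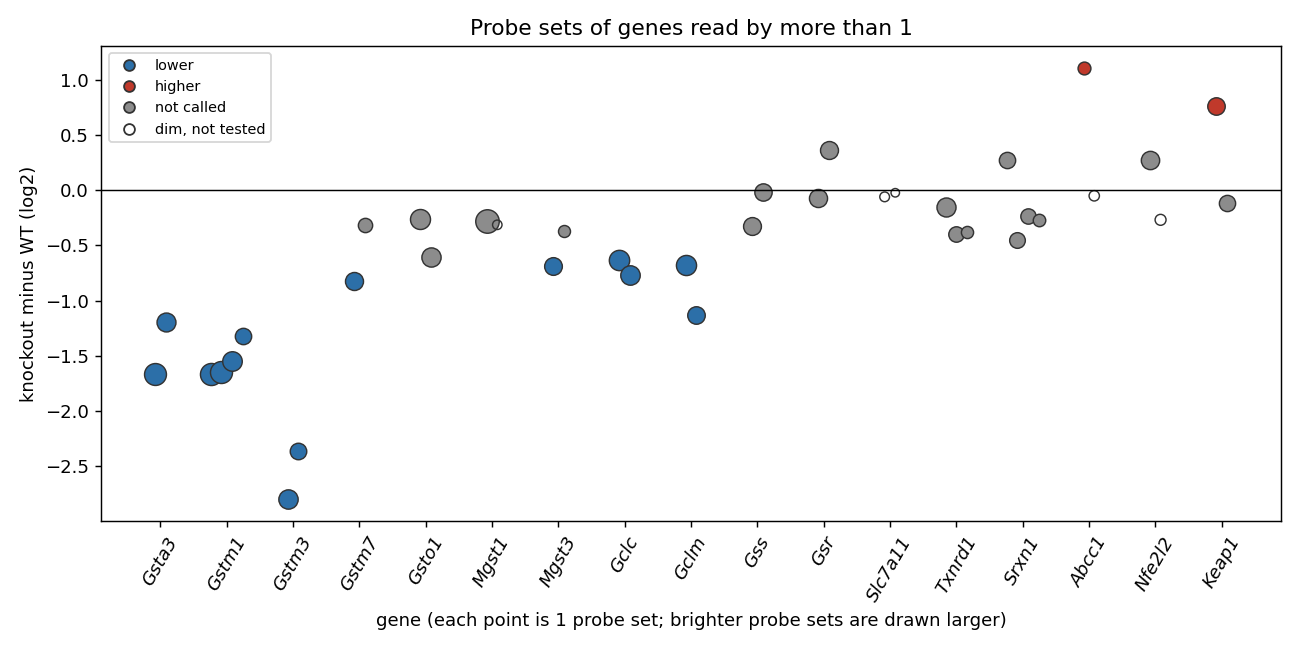
Knockout minus WT differences (log2, vertical axis) of every probe set of the genes read by more than 1, with 1 point per probe set, larger where brighter, blue where it fell, red where it rose, grey where not called and open where too dim to test. All 4 probe sets of Gstm1 and both of Gsta3, Gstm3, Gclc and Gclm fell, while those of Keap1, Srxn1 and Gsr lie on both sides of 0.

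Probe sets of the same gene mostly gave the same call. Of the 52 tested member probe sets 28 were called, beside 17.9% of all probe sets: 25 fell and 3 rose, where 7.82% and 10.1% of all probe sets did. Of the 13 members with more than 1 tested probe set, 10 had the same call on each. Of these, Gsta3, Gstm1, Gstm3, Gclc and Gclm fell on every tested probe set. Gsto1, Gss, Gsr, Txnrd1 and Srxn1 were called on none, and the probe sets of Gsr and Srxn1 pointed both ways. The exceptions to a shared call were Gstm7, Mgst3 and Keap1, each with a dimmer probe set that was not called. The brightest probe sets of Gstm1 and Gstm3 carry a suffix for probes that can also read related transcripts, so their values may hold signal from neighbouring mu genes. Each gene has a probe set without that suffix, and these fell by 1.65 and 2.36 log2.

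Of the regulators, Keap1 was higher on its brighter probe set and Nfe2l2 was not called. Keap1, which targets NRF2 for degradation, read 7.93, 7.78 and 7.6 log2 in knockout and 6.84, 6.95 and 7.22 in WT and rose by 0.77 (SE 0.14, limma adjusted p = 0.00973). Its dimmer probe set differed by -0.12, the mean of both by 0.33 (limma adjusted p = 0.14), and on the poly-A scale the difference was 0.02. The rise of Keap1 therefore rests on 1 probe set. Nfe2l2 read 8, 7.82 and 8.78 against 7.55, 8.27 and 7.96, with overlapping groups and a difference of 0.28 (95% interval -0.36 to 0.91).

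Among 9 partners, antagonists and turnover genes of NRF2 3 rose, 1 fell and 5 were not called, where 10.5% of all genes rose and 8.09% fell. The turnover genes Cul3 and Rbx1 were not called, at -0.24 and -0.41, with the knockout values all below WT. The list's median was 0.35 log2 beside -0.05 for all genes, and none of the 3 that rose was called on the poly-A scale. Bach1, a repressor that competes with NRF2 at the same elements, read 7.97, 7.94 and 8.04 in knockout and 6.98, 6.86 and 7.16 in WT and rose by 0.98 (SE 0.12, limma adjusted p = 0.0015). Maff and Mafk, small MAF partners of both factors, rose by 0.64 (SE 0.13, limma adjusted p = 0.0124) and 0.46 (SE 0.11, limma adjusted p = 0.0263), while on the poly-A scale they were at -0.11 and -0.29 and Bach1 at 0.24. The Maff call was lost without knockout replicate 1 or 2 (limma adjusted p = 0.051 to 0.0539) and that of Mafk without replicate 1 or 2 of either genotype (limma adjusted p = 0.065 to 0.0935). Sqstm1, an autophagy adaptor that binds KEAP1 and is itself an NRF2 target, fell by 0.72 (SE 0.17, limma adjusted p = 0.0215), but lost its call without knockout replicate 2 or 1 (limma adjusted p = 0.0768 and 0.0797) and with hepatocyte marker centring (limma adjusted p = 0.0834). Its probe sets differed, since the mean over them was -0.38 (limma adjusted p = 0.121) and the brightest without a shared-sequence suffix gave -0.05.

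Among NRF2 target genes outside the set more fell than rose. Of 16 tested genes in that list 5 fell, 2 rose and 9 were not called, where 8.09% of all genes fell and 10.5% rose. The list's median was -0.12 log2. Hmox1, the haem oxygenase that NRF2 induces and BACH1 represses, read 8.72, 8.51 and 8.59 in knockout and 6.27, 6.92 and 7.24 in WT and rose by 1.80 (SE 0.23, limma adjusted p = 0.00179). Macrophages that take up red cells also express Hmox1, and Marco, a macrophage marker, rose by 3.02 while Clec4f, a Kupffer cell marker, fell by 2.82, and the part of these cells was not tested. The whole list of 12 Kupffer cell and macrophage markers had 3 that rose and 4 that fell, with array means of 7.44 to 7.59 in knockout and 7.35 to 7.76 in WT. Entpd5, a nucleotidase of the endoplasmic reticulum, and Ugdh, which makes UDP-glucuronic acid, fell by 1.20 (SE 0.16, limma adjusted p = 0.00226) and 1.03 (SE 0.19, limma adjusted p = 0.00867). Aldh1a1, a retinal dehydrogenase, fell by 0.61 (SE 0.12, limma adjusted p = 0.0119). The Aldh1a1 call was lost without knockout replicate 1 (limma adjusted p = 0.05004) and with hepatocyte marker centring (limma adjusted p = 0.0591).

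Genes that break down or use glutathione, or supply its sulfur, held 4 that fell, 0 that rose and 11 that were not called among 15 tested (limma). Of all genes tested 8.09% fell and 10.5% rose. The list's median was -0.05 log2. Hagh, one of the glyoxalases that clear methylglyoxal with glutathione as cofactor, fell by 1.01 (SE 0.16, limma adjusted p = 0.00443). The other glyoxalase gene, Glo1, read 9.36, 10 and 10.19 in knockout and 10.77, 11.01 and 10.78 in WT, and fell (limma adjusted p = 0.014). Cbs, which starts the path from homocysteine to cysteine, fell by 0.74 (SE 0.13, limma adjusted p = 0.00658). Chac2, which degrades glutathione, fell by 0.85 (SE 0.17, limma adjusted p = 0.0111), a call lost without knockout replicate 2 (limma adjusted p = 0.0506).

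Other xenobiotic receptors and their cytochrome P450 targets were lower in 5 of 11 tested cases and higher in 0, where 8.09% of all genes fell and 10.5% rose. The list's median was -0.53 log2. Nr1i3, the gene of CAR, read 7.71, 7.35 and 7.4 in knockout and 8.85, 8.65 and 8.77 in WT and fell by 1.27 (SE 0.13, limma adjusted p = 0.000819). It was the only receptor gene of the list that fell. Nr1i2, the gene of its relative PXR, was not called at 0.39 (limma adjusted p = 0.21). Ahr, Arnt and Rxra were not called either, at 0.05, 0.10 and 0.01. Cyp2c55 and Cyp3a11, drug-metabolising P450 genes that respond to CAR and PXR, fell by 3.35 (SE 0.24, limma adjusted p = 0.000151) and 0.53 (SE 0.09, limma adjusted p = 0.00607). Cyp2b10 was not called at -0.84 (limma adjusted p = 0.144), with the knockout values all below WT. Cyp1a2, a pericentral P450, read 8.9, 9.33 and 10.31 against 12.43, 11.82 and 11.96 and fell by 2.56 (SE 0.33, limma adjusted p = 0.00199). Knockout replicate 3 was the highest of its group here, as in Gstm1, Gstm2 and Gstm3, but not in general: among the 17 members that fell it was the highest knockout in 7 and the lowest in 8, while knockout replicate 2 was the highest in 10.

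Zonation markers were read because several of these GSTs are strongest around the central vein. The counts that follow stand beside 8.09% of all genes that fell and 10.5% that rose. Of 8 pericentral markers 3 fell and 0 rose, with a median of -0.68 log2. Lect2 fell by 1.54 (SE 0.12, limma adjusted p = 0.000191), the ammonium transporter gene Rhbg by 0.72 (SE 0.12, limma adjusted p = 0.00669) and Cyp2e1 by 0.46 (SE 0.08, limma adjusted p = 0.00814), the last not called with hepatocyte marker centring (limma adjusted p = 0.0696). Of 6 tested periportal markers 2 fell and 1 rose, with a median of -0.12. Cyp2f2 fell by 2.81 (SE 0.32, limma adjusted p = 0.00123) and Hal by 1.09 (SE 0.26, limma adjusted p = 0.0244), and the Hal call was lost without knockout replicate 2 or WT replicate 1 or 2 (limma adjusted p = 0.0572 to 0.0764). Falls were thus seen in marker genes of both zones, and whether the zones differ was not tested. Genes with a sex bias in liver gave 2 that fell among 6 tested male-biased genes and 0 called by limma among 5 tested female-biased genes, of which 1, Cyp2b13, had an unadjusted p under 0.05. An array of each genotype stood apart in 1 of the latter: Cyp2b9, a P450 gene of female liver, read 2.59 in knockout replicate 3 and 2.69 in WT replicate 3, against 7.81 to 9.28 in the other arrays. The list's mean was 5.56 and 5.41 in these arrays and 6.64 to 7.89 in the others. In knockout replicate 3 the low mean came from Cyp2b9. Across the knockouts Cyp2b13 read 4.41, 4.28 and 4.14, Cux2 6.2, 6.1 and 6.31, Cyp17a1 7.86, 7.57 and 7.95 and Prom1 6.94, 7.41 and 6.82. WT replicate 3 was also low in Cyp2b13, at 4.09 against 8.1 and 7.4 in the other WT arrays. Without knockout replicate 3 or without WT replicate 3, 14 members fell, with medians of -0.56 and -0.59 log2. In these fits 827 and 944 of all 13370 genes fell.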

How the data were processed

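Liver RNA of 3 knockout and 3 WT mice was measured, 1 array per animal. The deposited values are log2 values per probe set, as made by the authors. That base was settled from their range. MAS5 is listed, per the submitters' processing notes, with neither version nor role, so how probes were combined is not known here. A low value therefore cannot be told from background, and a fold of a dim gene may be understated. Replicate numbers only name animals.

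Control probe sets (64) were set aside, as were dim probe sets, with a mean below 3.58 log2 (the 40th percentile). The remaining 27022 were tested. Each gene was read by its brightest tested probe set with 1 symbol. Knockout was set against WT by limma's two-sided moderated test (version 3.58.1, R 4.3.3, eBayes with trend), with Benjamini-Hochberg adjustment over all 13370 genes, or over all probe sets where stated. "Rose" and "fell" mean an adjusted p under 0.05. The fit was tested on simulated data.

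Named were Sgpl1, all members and up to 4 genes with the smallest adjusted p of each further list. Me1 was picked after its values were seen. The members and lists were chosen with earlier results of these data known. Promoter windows come from RefSeq (GRCm38.p6), searched in Python 3.11.15.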

Additional observations from a re-analysis of the deposited data

Results flagged for a closer look

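The poly-A control probe sets lie outside the comparison of genes, and they differed with genotype. Their mean was higher in knockout by 0.749 log2, and each of the 24 had its lowest knockout value above its highest WT value. The part of this difference in the values of the GST and NRF2 genes was not tested beyond the centring on these controls.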

How the results depend on the processing

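Of 17 members that fell, 11 kept the call under all 16 alternatives (Gsta3, Gstm1, Gstm2, Gstm3, Gstm4, Gstm6, Gstm7, Gstt1, Gstt3, Gstz1 and Ephx1), and all 17 stayed below 0 in each. Of the 3 that rose, none kept the call on the poly-A scale. There, 10497 genes and 45 of 52 member probe sets were called, in place of 2482 and 28. On that scale 28 members fell and 0 rose, and the members' median was -1.41. Most genes fell there, 10120 of 13370 with a median of -0.80, so a fall kept on that scale says little about a member. With the filter at the 60th percentile 1 member rose, as Mgst2, Abcc1 and Cbr3 were no longer tested. The median was -0.53 with hepatocyte marker centring, -0.58 with array quality weights and -0.55 with probe sets averaged per gene. Leaving out 1 array at a time gave 1339 to 2381 called genes (1339 without knockout replicate 2, 1428 without knockout replicate 1, 1625 without WT replicate 1) and medians of -0.69 to -0.56.

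Sign changes touched genes not called and the MAF genes. On the poly-A scale Gstp1 was at -0.55, Srxn1 at -0.47, Cbr3 at -0.48, Nfe2l2 at -0.47, Maff at -0.11 and Mafk at -0.29. With hepatocyte marker centring Gstm5 was at 0.0569, Gstt2 at 0.0689, Gsr at 0.0575 and Cbr1 at 0.0359. With array weights Gstm5 was at 0.003, Gstt2 at 0.315 and Cbr1 at 0.0498. With the mean of probe sets Gsr was at 0.15 and Srxn1 at -0.17, and Srxn1 was at -0.45 on probe sets without a shared-sequence suffix. Without 1 array, the values ranged from -0.21 to 0.11 in Gstm5, -0.54 to 0.25 in Gstt2, -0.20 to 0.0598 in Gsr, -0.30 to 0.11 in Cbr1 and -0.0141 to 0.47 in Nfe2l2. The causes were not tested, beyond the shift that a centring applies to every gene. No paired analysis was possible because the labels give the groups no shared replicate numbers. Dim probe sets limit Slc7a11, Mgst2 and Abcc1, and 3 arrays per group limit all values.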

Other observations

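Relatives outside the set were read as well. A probe set that the annotation gives to Gsta1, Gsta2 and Gm3776 together read 4.23, 4.22 and 4.66 log2 in knockout and 6.16, 4.13 and 6.17 in WT. As on the probe set of Gsta2 alone, WT replicate 2 was with the knockouts, and the difference of -1.12 was not called (limma adjusted p = 0.152 over all probe sets). Gstp3, a second pi class gene, differed by 0.27 (95% interval -0.30 to 0.85) and Gstcd by -0.05 (95% interval -0.33 to 0.23), and Gsto2 was too dim to test. Gstt4, which lies between Gstt1 and Gstt2, read 3.52 to 3.56 in knockout and 3.81 to 3.99 in WT and narrowly missed the threshold (-0.34, limma adjusted p = 0.0517 over all probe sets).

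WT replicate 2 stood apart in several of these genes. It was the lowest WT array in Gsta2 and Gstt2, yet the highest in Osgin1 at 9.62. Among the 17 members that fell it was the lowest WT array in 8 and the highest in 3, while WT replicates 1 and 3 were lowest in 5 and 4. Me1, the malic enzyme that supplies NADPH and is a target of NRF2 and of lipogenic factors, read 9.78 in that array, 7.28 and 8.15 in the other WT arrays and 5.99 to 6.58 in knockout. It was chosen after its values were seen. Me1 fell by 2.17 log2 (SE 0.54, limma adjusted p = 0.0292), a call lost without knockout replicate 1 or 2 (limma adjusted p = 0.0967 and 0.0965). The call was also lost with its probe sets averaged (-1.88, limma adjusted p = 0.05002) and on probe sets without a shared-sequence suffix (-1.60, limma adjusted p = 0.073).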
